A study of Mus musculus with 13 samples.

Results

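The genes described here encode collagen chains. They are the 42 array features whose only gene symbol has the form Col, digits, a, digits, such as Col1a1, out of 30145 gene symbols and 65929 features measured. Each of the 42 symbols had 1 feature, so no choice among features was needed. They comprised 11 fibrillar chains, 8 chains of basement membranes and 23 others. Features for Col7a1 and Col6a4 carried a second symbol and were left out by that rule.

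Expression was measured in endometrium scraped from the opened uterus of 13 female C57BL/6 mice, 1 array per mouse. Every mouse, controls included, had both ovaries removed at 6 to 8 weeks of age and was then kept for 12 weeks in 1 of 4 arms. Controls ate normal chow (CON, n = 3). E2 mice (n = 4) ate the same chow and carried an estradiol-releasing pellet under the skin. HD mice (n = 3) ate a high-fat diet and had no pellet, and MIX mice (n = 3) had both the pellet and that diet. The study asked how estrogen and a high-fat diet, alone or together, alter endometrial transcripts. No mouse had ovaries, so CON is a state without ovarian hormones and not a cycling endometrium.

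Collagens are the main structural proteins of the extracellular matrix, and each is a triple helix of chains that may come from different genes. Fibrillar collagens form the fibers that give stroma its strength, type IV collagen forms the network of basement membranes under epithelia and around vessels, and the remaining types link, coat or anchor these structures. In the uterus the matrix is made largely by stromal fibroblasts and smooth muscle, and it is remodelled with ovarian hormones, decidualization and pregnancy.

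All values are log2 expression as deposited, so a difference of 1 is a doubling. Array medians lay between 4.48 and 4.71, and 40 of the 42 collagen features lay above the array median in all 13 mice. Col8a1 and Col10a1 lay below it in all 13. A value above it does not by itself show expression: 4 of 5 cartilage markers also averaged above it. Markers of the uterine epithelium, 9 genes such as Krt8 and Krt18, averaged 9.75 to 10.23 per mouse, and 10 stromal fibroblast markers averaged 7.50 to 9.18. In scraped tissue, fewer cells of a type and less RNA per cell cannot be told apart. Animals were coded in 2 ways in the titles: the 3 MIX mice, CON replicate 3, E2 replicate 4 and HD replicate 3 have lettered codes, and the other 7 mice have numbered ones. The meaning of these codes is unknown here, and all differences are fitted with code style as a covariate.

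No collagen gene differed between treatments at an adjusted p under 0.05 in limma, in any of 7 comparisons. Few features of any kind did: between 0% and 0.0167% of all 65929 passed in these comparisons. The collagens of type I, III and VI varied widely between mice of the same arm. The widest range within an arm was 2.37 log2 units for Col6a3 (in MIX), 1.93 for Col1a1 (in E2) and 1.58 for Col6a1 (in MIX), while 26 of the 42 genes had a pooled SD within groups under 0.2. Across all 13 mice the lowest and highest differed 5.83-fold for Col6a1, 5.38-fold for Col6a3 and 4.65-fold for Col1a1. The mice at the ends were few: CON replicate 3 had the lowest value of 20 of the 42 genes, and MIX replicate 3 the highest of 16.

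**Figure D1:**
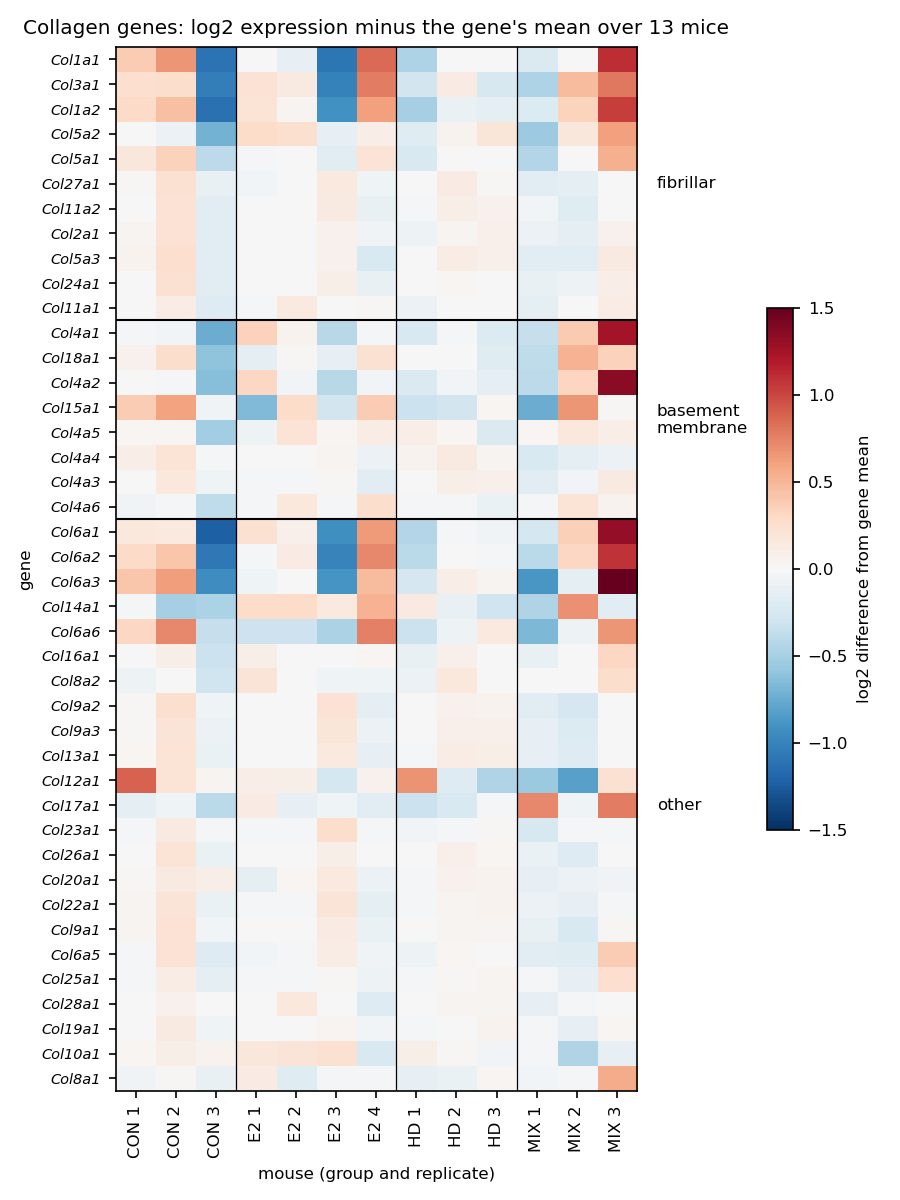
Heat map of 42 collagen genes (rows, by class) in 13 mice (columns, by group), colored by log2 expression minus the gene's mean over all mice. Col1a1, Col1a2, Col3a1, Col4a1, Col4a2, Col6a1, Col6a2 and Col6a3 are lowest (blue) in CON replicate 3 and highest (red) in MIX replicate 3, and columns differ within each group.

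Type I and type III collagens are the bulk fibers of stroma. Col1a1, the gene of the α1 chain of type I collagen, measured 9.95, 10.23 and 8.46 in CON, 9.56, 9.45, 8.49 and 10.42 in E2, 9.11, 9.56 and 9.56 in HD, and 9.36, 9.56 and 10.68 in MIX. Values were highest in a MIX mouse and lowest in a CON mouse, but the other CON mice exceeded 2 of the 3 MIX mice, and all groups overlapped. Group means ± SD were 9.55 ± 0.95 (n = 3), 9.48 ± 0.79 (n = 4), 9.41 ± 0.26 (n = 3) and 9.87 ± 0.71 (n = 3). The fitted difference of MIX from CON was 0.31 with a standard error (SE) of 0.65, and that of E2 from CON was -0.07 with an SE of 0.53.

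Col1a2, whose product is the partner chain in type I collagen, measured 9.63, 9.79 and 8.22 in CON, 9.55, 9.38, 8.43 and 9.96 in E2, 8.84, 9.23 and 9.20 in HD, and 9.14, 9.67 and 10.37 in MIX. It was low in the same CON and E2 mice as Col1a1. Col3a1, whose chain forms type III collagen in distensible tissues, measured 9.65, 9.65 and 8.35 in CON, 9.61, 9.53, 8.38 and 10.16 in E2, 9.12, 9.52 and 9.16 in HD, and 8.93, 9.86 and 10.19 in MIX. Again CON replicate 3 and E2 replicate 3 stood lowest and MIX replicate 3 and E2 replicate 4 highest. HD had the narrowest spread of the 4 groups for all 3 genes, with SDs of 0.26, 0.22 and 0.22.

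The remaining fibrillar genes include those of type V collagen and of the cartilage collagens. Col5a1 and Col5a2, whose type V chains nucleate fibrils, had group means of 6.93 to 7.05 and of 6.88 to 7.28, and MIX replicate 3 was highest for both, at 7.54 and 7.77. Col2a1, Col5a3, Col11a1, Col11a2, Col24a1 and Col27a1 varied little: each spanned at most 1.39-fold between its lowest and highest mouse. Col27a1, whose product is a fibrillar collagen of cartilage and developing tissues, was lower in the 3 MIX mice (6.46 to 6.63) than in the 3 HD mice (6.631 to 6.75), by a margin of thousandths of a log2 unit between the nearest mice (6.629 and 6.631), and overlapped once each array was centred on its own median.

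Type IV collagen of most basement membranes is built from the chains of Col4a1 and Col4a2. Col4a1 measured 7.24, 7.22 and 6.51 in CON, 7.60, 7.31, 6.84 and 7.24 in E2, 7.03, 7.23 and 7.05 in HD, and 6.91, 7.65 and 8.51 in MIX. Col4a2 measured 7.20, 7.16 and 6.56 in CON, 7.50, 7.15, 6.78 and 7.16 in E2, 6.98, 7.15 and 7.05 in HD, and 6.80, 7.53 and 8.55 in MIX. The 3 MIX mice were spread widely, MIX replicate 1 below all 3 HD mice and MIX replicate 3 above every other mouse. The fitted difference of MIX from CON was 0.87 (SE 0.40, adjusted p = 0.607 in limma) for Col4a1 and 0.78 (SE 0.42, adjusted p = 0.673 in limma) for Col4a2. Against E2, Col4a1 in MIX was 0.63 higher (SE 0.39), and 0.22 higher without MIX replicate 3.

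The pair followed each other from mouse to mouse with the highest Pearson's r of the 10 pairs of chains compared here, though not the highest Spearman's rho, and the genes lie head to head on chromosome 8. Their start sites are 21 bases apart on opposite strands, and the promoter windows of RefSeq (build GRCm38.p6), 250 bases before to 50 after each start, share 78 bases. The windows are chr8:11312777-11313076 (minus strand) for Col4a1 and chr8:11312555-11312854 (plus strand) for Col4a2. Their sequences are shown because 1 stretch of DNA carries both starts, each read 5′ to 3′ on its gene's own strand, with the letters CCAAT or their reverse complement ATTGG in capitals.
Col4a1: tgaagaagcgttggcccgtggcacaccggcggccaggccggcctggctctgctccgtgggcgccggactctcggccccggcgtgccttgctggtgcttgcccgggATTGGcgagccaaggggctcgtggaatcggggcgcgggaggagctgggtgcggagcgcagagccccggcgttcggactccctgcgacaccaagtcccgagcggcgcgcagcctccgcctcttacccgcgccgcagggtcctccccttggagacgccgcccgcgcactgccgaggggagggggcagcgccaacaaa
Col4a2: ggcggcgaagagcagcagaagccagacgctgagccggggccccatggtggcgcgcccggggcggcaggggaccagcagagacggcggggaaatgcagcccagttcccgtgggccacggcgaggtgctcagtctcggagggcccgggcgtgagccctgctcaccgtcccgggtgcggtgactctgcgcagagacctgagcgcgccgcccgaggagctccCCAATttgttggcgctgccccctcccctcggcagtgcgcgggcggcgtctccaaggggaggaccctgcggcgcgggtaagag

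The letters CCAAT or ATTGG, searched on both strands, stood once in each: ATTGG from position -145 in Col4a1 and CCAAT from position -32 in Col4a2, counted from the start site. They occurred in 37.4% of all 32851 promoter windows of the table and in 11 of the 33 collagen genes it lists. GGGCGG or its reverse complement CCGCCC, the GC box, occurred in both windows, in 35.7% of all windows and in 20 of the 33 collagen genes. TATAAA or TTTATA occurred in 13.6% of all windows and in 5 of the 33. The windows were 74.0% and 73.7% G or C. A match of letters is a description of the sequence. The shares are over windows, whereas a collagen gene was counted if any window of it held the letters, so shares and counts are not on the same basis.

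Col4a5 and Col4a6 are the X-linked type IV genes, and their chains assemble together in basement membranes of smooth muscle and some epithelia. Col4a5 measured 6.22, 6.23 and 5.67 in CON, 6.11, 6.39, 6.22 and 6.30 in E2, 6.29, 6.22 and 5.98 in HD, and 6.22, 6.35 and 6.29 in MIX. A single CON mouse, replicate 3, stood apart at the low end. The fitted difference of MIX from CON was 0.41 (SE 0.14, adjusted p = 0.465 in limma), and 0.16 without CON replicate 3. Col4a6 measured 5.27, 5.32 and 4.96 in CON, 5.30, 5.49, 5.31 and 5.59 in E2, 5.31, 5.30 and 5.24 in HD, and 5.31, 5.53 and 5.38 in MIX, with the same CON mouse lowest. Its E2 mice averaged 0.24 above CON (SE 0.11, adjusted p = 1.0 in limma).

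These genes also lie head to head, on the X chromosome, but with starts 1343 bases apart and no shared bases in their windows, chrX:141475169-141475468 (plus strand) for Col4a5 and chrX:141474027-141474326 (minus strand) for Col4a6. The windows are shown beside the first pair because the wider-spaced pair also varied together, with capitals marking CCAAT as above.
Col4a5: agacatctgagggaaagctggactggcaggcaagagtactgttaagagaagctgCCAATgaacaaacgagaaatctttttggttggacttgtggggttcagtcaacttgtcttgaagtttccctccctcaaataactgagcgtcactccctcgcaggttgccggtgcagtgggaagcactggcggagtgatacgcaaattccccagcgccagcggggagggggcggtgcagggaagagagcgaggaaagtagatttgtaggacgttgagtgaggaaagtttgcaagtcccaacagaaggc
Col4a6: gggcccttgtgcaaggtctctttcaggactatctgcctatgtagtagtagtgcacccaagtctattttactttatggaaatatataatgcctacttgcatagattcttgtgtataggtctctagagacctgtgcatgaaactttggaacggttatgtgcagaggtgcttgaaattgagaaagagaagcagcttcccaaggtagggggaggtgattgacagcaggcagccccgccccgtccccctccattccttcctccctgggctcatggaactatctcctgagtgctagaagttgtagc

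CCAAT stood from position -196 in Col4a5, and neither it nor ATTGG was in the Col4a6 window. The windows were 52.7% and 48.3% G or C.

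Col4a3 and Col4a4 encode chains that join that of Col4a5 in the basement membranes of kidney, lung, ear and eye. Col4a4 measured 6.24, 6.35 and 6.11 in CON, 6.15, 6.15, 6.19 and 6.06 in E2, 6.20, 6.28 and 6.18 in HD, and 5.92, 6.01 and 6.058 in MIX. The 3 MIX mice lay below every mouse of each other group, with E2 replicate 4 at 6.06 the nearest. That order did not hold once each array was centred on its own median: no collagen was then without overlap in MIX against E2, and Col4a4 overlapped against CON and HD too. The fitted difference of MIX from HD was -0.15 (SE 0.07, adjusted p = 0.714 in limma) and -0.05 after centring. Arrays of MIX had medians of 4.48 to 4.57, against 4.64 to 4.69 in HD. Col4a3 had group means of 5.88 to 5.98.

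Col18a1 and Col15a1 encode the multiplexins, collagens with heparan or chondroitin sulfate chains at the edge of basement membranes, whose C-terminal fragments are known as endostatin and restin. Col18a1 measured 7.30, 7.51 and 6.64 in CON, 7.09, 7.26, 7.12 and 7.46 in E2, 7.23, 7.23 and 7.06 in HD, and 6.85, 7.76 and 7.59 in MIX. Col15a1 measured 7.27, 7.48 and 6.83 in CON, 6.22, 7.16, 6.61 and 7.27 in E2, 6.56, 6.61 and 6.91 in HD, and 6.14, 7.54 and 6.90 in MIX. Both were highest in MIX replicate 2, the mouse with the highest endothelial markers (mean 7.52 over 9 genes, against 5.20 to 6.14 in the other mice), and Col15a1 was lowest in MIX replicate 1, the mouse with the lowest; their part in these values was not tested. In HD, Col15a1 was 0.50 below CON (SE 0.36, adjusted p = 1.0 in limma).

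Type VI collagen forms beaded filaments around cells, from the chains of Col6a1, Col6a2 and a longer chain such as that of Col6a3. Col6a1 measured 9.68, 9.67 and 8.29 in CON, 9.75, 9.60, 8.61 and 10.16 in E2, 9.08, 9.49 and 9.47 in HD, and 9.26, 9.88 and 10.84 in MIX. Col6a2 measured 9.23, 9.36 and 7.87 in CON, 8.92, 9.06, 7.94 and 9.67 in E2, 8.54, 8.94 and 8.92 in HD, and 8.54, 9.26 and 10.02 in MIX. Col6a3 measured 8.53, 8.74 and 7.19 in CON, 8.05, 8.11, 7.24 and 8.59 in E2, 7.86, 8.21 and 8.16 in HD, and 7.24, 7.97 and 9.61 in MIX. The order of mice resembled that of type I collagen, with CON replicate 3 and E2 replicate 3 low and MIX replicate 3 high in all 3 genes, and the groups overlapped. MIX was above CON by 0.83 for Col6a1, with an SE of 0.59. Col6a6, an alternative long chain, ran from 6.16 in MIX replicate 1 to 7.59 in E2 replicate 4, and Col6a5, another, had group means of 5.27 to 5.30.

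The fibril-associated collagens coat fibrils and do not form them. Col14a1, whose product binds fibrils in skin, tendon and other dense stroma, measured 6.91, 6.45 and 6.46 in CON, 7.21, 7.22, 7.09 and 7.47 in E2, 7.07, 6.83 and 6.64 in HD, and 6.49, 7.63 and 6.77 in MIX. All 4 E2 mice were above all 3 CON mice, whereas the MIX mice ran from near the lowest to the highest value. The fitted difference of E2 from CON was 0.64 (SE 0.25), 1.55-fold, with an unadjusted p of 0.0261 and an adjusted p of 1.0 in limma. Over the alternative settings it lay between 0.48 and 1.00, with a lowest adjusted p of 0.479. The interaction of pellet and diet was -0.48 for this gene, the high-fat value of the pellet difference less its chow value (SE 0.39, adjusted p = 1.0 in limma).

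Col12a1, a relative found in tissue under tension, measured 7.22, 6.54 and 6.38 in CON, 6.43, 6.42, 6.07 and 6.40 in E2, 7.004, 6.14 and 5.89 in HD, and 5.77, 5.52 and 6.56 in MIX. Means of the other arms lay 0.37 to 0.76 below the CON mean, but 3 of the 4 E2 mice, HD replicate 1 and MIX replicate 3 lay within the CON range. HD was 0.37 below CON (SE 0.32, adjusted p = 1.0 in limma). Col9a1, Col9a2, Col9a3, Col16a1, Col19a1, Col20a1 and Col22a1 spanned at most 1.55-fold between mice, and Col20a1 was lower in the 3 MIX mice (5.88 to 5.94) than in CON and HD, which also ended with centring.

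Among the transmembrane collagens, Col17a1 had the smallest p of the 42 genes in each comparison of MIX with another group. Its product is the hemidesmosomal collagen of basal keratinocytes. Col17a1 measured 6.11, 6.19 and 5.85 in CON, 6.38, 6.13, 6.20 and 6.09 in E2, 5.93, 6.03 and 6.23 in HD, and 6.98, 6.186 and 7.03 in MIX. MIX replicates 1 and 3 were above all other mice, and MIX replicate 2 lay level with CON replicate 2. The fitted difference was 0.73 from CON (SE 0.23, 1.65-fold, adjusted p = 0.446 in limma), 0.71 from HD (SE 0.23, adjusted p = 0.685) and 0.58 from E2 (SE 0.23, adjusted p = 1.0). Without MIX replicate 2 the difference from CON was 1.00 (SE 0.15, adjusted p = 0.0481 in limma), the only case among the alternatives in which a collagen passed. The other transmembrane genes, Col13a1, Col23a1 and Col25a1, spanned at most 1.42-fold.

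The short-chain network collagens form hexagonal sheets. Col8a2, whose chain is known from the cornea and vessel walls, measured 6.60, 6.68 and 6.39 in CON, 6.88, 6.69, 6.62 and 6.63 in E2, 6.60, 6.84 and 6.68 in HD, and 6.70, 6.68 and 6.95 in MIX. MIX was 0.30 above CON (SE 0.12, adjusted p = 0.536 in limma). The lowest MIX value, 6.68, equalled the highest CON value. Col10a1, known from growth cartilage, and Col8a1, the usual partner of Col8a2, stayed below the array medians, and the lone high value of Col8a1 was 4.32 in MIX replicate 3. Col26a1 and Col28a1 differed by at most 1.32-fold between mice.

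**Figure D2:**
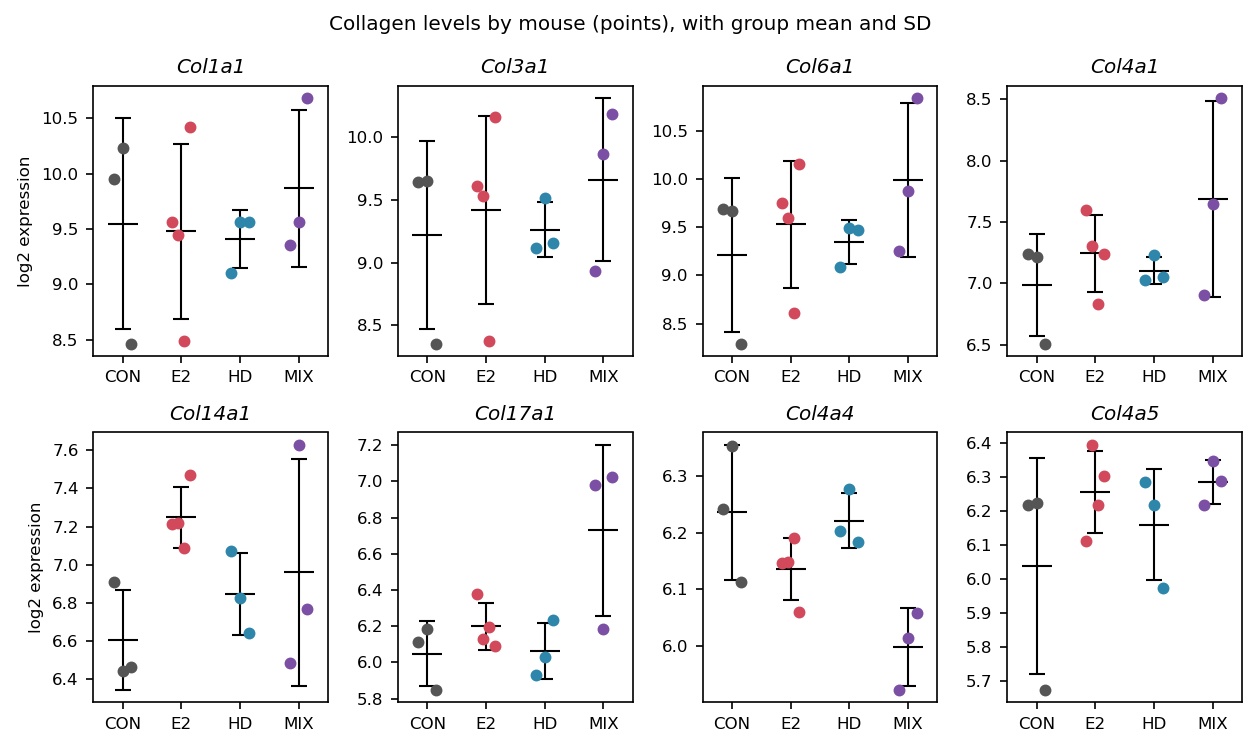
Log2 expression of 8 collagen genes in each mouse (points, colored by group), with the group mean (horizontal bar) and SD (error bar); each panel has its own axis. Col1a1, Col3a1, Col6a1 and Col4a1 overlap in all groups, the 4 E2 mice of Col14a1 lie above the 3 CON mice, and MIX replicates 1 and 3 are the high points of Col17a1.

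With estradiol alone, the collagens lay on both sides of their control level. The median fitted difference of E2 from CON was -0.02 over the 42 genes, -0.03 for fibrillar, 0.11 for basement membrane and -0.02 for the other collagens, beside -0.01 over all features. Of the 42 genes 18 were higher. In limma 0 collagens passed, as did 0% of all 65929 features, and 1 collagen (Col14a1) had an unadjusted p under 0.05, 2.38% beside 4.02% of all features. Groups did not overlap for 1 collagen, 2.38% of them, against 5.61% of all features, of which 53.7% were higher (63.1% after centring).

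With the high-fat diet and no estradiol, the collagens also lay on both sides of their control level, 22 of 42 higher. The median of HD from CON was 0.001 over the collagens (-0.03 after centring), 0.06 for basement membrane genes and -0.02 for the other class, beside 0.02 over all features. In limma 0 collagens passed, as did 0% of all features, and 0 had an unadjusted p under 0.05, beside 2.91% of all features. No collagen was without overlap as deposited, against 8.54% of all features (65.3% of these higher, 35.7% after centring), and 2 were lower (Col23a1 and Col28a1) after centring. Col8a2 (0.15, SE 0.11), Col15a1 and Col12a1 had the smallest p. Both this comparison and that of E2 use the same 3 CON mice.

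In MIX against CON the basement membrane genes had the highest median, 0.32, with 6 of 8 higher. Fibrillar genes had a median of 0.05 (8 of 11 higher), the others -0.03 (10 of 23 higher), and all features -0.03. Without code style in the fit the fibrillar median was -0.01, that of all 42 collagens -0.03 (0.05 with it) and that of basement membrane genes 0.24. All MIX mice share 1 code style. Leaving out 1 mouse at a time gave a fibrillar median of -0.15 to 0.13. The basement membrane median was -0.01 without CON replicate 3 and 0.09 with weights estimated per array. In limma 0 collagens passed, beside 0.00303% of all features, and 4 had an unadjusted p under 0.05: Col17a1, Col4a5, Col8a2 and Col4a4. That is 9.52% of the collagens, beside 8.34% of all features. Groups did not overlap for 3 collagens, all lower in MIX (Col4a4, Col20a1 and Col10a1), which is 7.14% against 17.9% of all features. The direction of such counts turned with scaling: with each array centred on its median, 5 collagens were higher without overlap (Col4a5, Col4a6, Col8a2, Col17a1 and Col8a1) and only Col10a1 was lower. The same happened over all features, of which 30.8% of those without overlap were higher in MIX as deposited and 78.0% after centring.

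Against HD, the other high-fat group, MIX had a median of 0.07 over the collagens, 0.22 for basement membrane genes, and -0.04 over all features. In limma 0 collagens passed, beside 0.00455% of all features, and 1 had an unadjusted p under 0.05, 2.38% beside 7.05% of all features. Groups did not overlap for 3 collagens, Col4a4, Col27a1 and Col20a1, all lower in MIX, which is 7.14% against 15.9% of features. After centring each array, which moved every difference of MIX from HD up by 0.10, 5 collagens were higher without overlap (Col4a5, Col4a6, Col1a2, Col17a1 and Col8a1) and 0 lower. Over all features the higher share of those without overlap went from 21.8% to 84.8%.

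Against E2, the other pellet group, MIX had a median of 0.04 over the collagens and -0.02 over all features, with 27 of 42 genes higher. The collagen median was -0.02 without code style in the fit, and -0.05 to 0.15 when 1 mouse at a time was left out. In limma 0 collagens passed, as did 0% of features, with 1 at an unadjusted p under 0.05, 2.38% beside 2.78% of all features. Col4a4 alone, 2.38% of the collagens, was without overlap, against 5.65% of all features, and none was after centring. Of the features without overlap, 26.5% were higher in MIX as deposited and 73.4% after centring. These comparisons share the 3 MIX mice.

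The interaction asks whether the pellet difference differs between diets. Its median was 0.06 over the collagens (29 of 42 above 0) and -0.04 over all features, and in limma 0 collagens passed, as did 0% of features, with 0 collagens at an unadjusted p under 0.05, beside 2.10% of all features. Col17a1 had the smallest p, with 0.57 and an SE of 0.31. Averaged over both diets, the pellet difference had a median of 0.02 over the collagens and 0.21 for basement membrane genes, beside -0.03 over all features. In limma 0 collagens passed, beside 0.0167% of all features, and 4 had an unadjusted p under 0.05: Col17a1 (0.43, SE 0.15, adjusted p = 0.406), Col4a4 (-0.13, SE 0.05), Col4a5 (0.24, SE 0.09) and Col4a6 (0.20, SE 0.08). That is 9.52% of the collagens, beside 9.99% of all features. Without code style in the fit, the collagen medians of the interaction and the averaged pellet difference were -0.03 and -0.01.

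**Figure D3:**
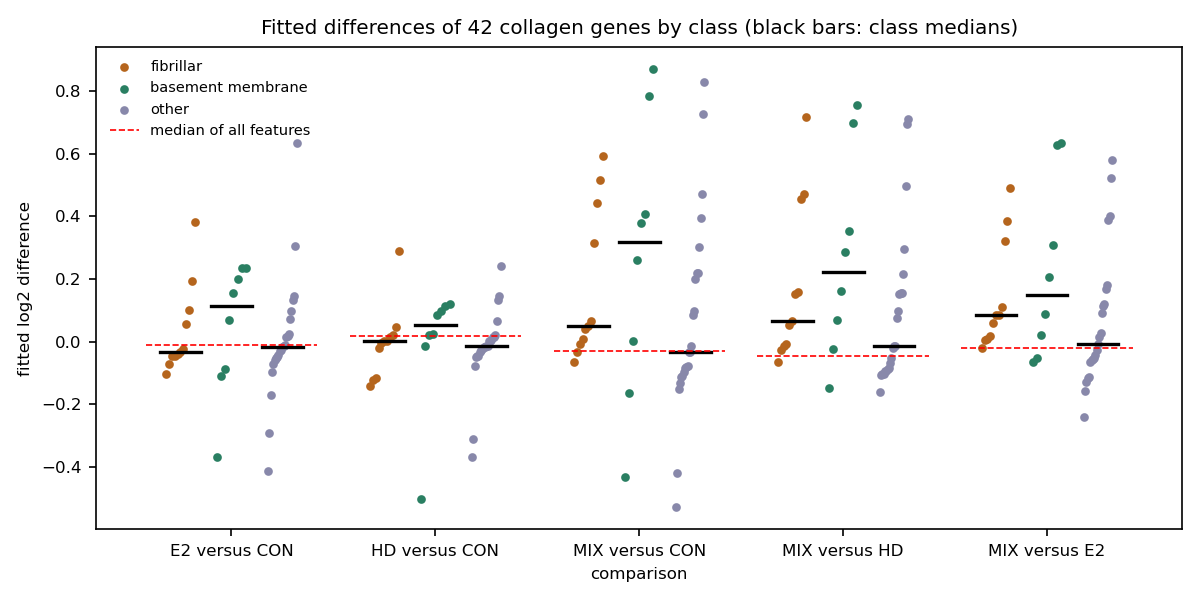
Fitted log2 differences of the 42 collagen genes (points) in 5 comparisons, by class, with class medians (black bars) and the median of all features (dashed red line). Points scatter on both sides of 0 in each comparison, and the basement membrane median is highest in MIX versus CON, at 0.32.

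Chains that assemble into the same collagen were compared over the 13 mice, in 10 pairs. A high r was not confined to such partners: of the 861 pairs among all 42 collagens, 51 had a Pearson's r over 0.9. The median r over those 861 pairs was 0.379, whereas the 10 partner pairs gave 0.486 to 0.992. Pearson's r was 0.992 for Col4a1 with Col4a2, 0.984 for Col9a1 with Col9a2, 0.972 for Col6a1 with Col6a2 and 0.967 for Col1a1 with Col1a2, each with a permutation p of 1e-05 (adjusted over the 10 pairs 2.5e-05), the smallest that 100000 permutations can give. Spearman's rho for these pairs was 0.927, 0.961, 0.896 and 0.967, with permutation p-values of 2e-05, 1e-05, 0.00012 and 1e-05. Without the 2 mice farthest from the median of the first gene, r was 0.987, 0.985, 0.958 and 0.939. With group means subtracted it was 0.993, 0.983, 0.987 and 0.980, so these pairs moved together within the arms. Within the 7 mice with numbered codes r was 0.987, 0.963, 0.941 and 0.963, with exact permutation p-values of 0.0028, 0.0024, 0.0083 and 0.00079. Within the 6 with lettered codes it was 0.994, 0.985, 0.990 and 0.970, each with an exact permutation p of 0.0014, the smallest that 6 mice allow.

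Col6a1 with Col6a3 gave r = 0.886 (rho 0.753, permutation p = 0.00014 and 0.0044, adjusted 0.00023 and 0.0073), and 0.751 without the 2 farthest mice. Col4a5 with Col4a6 gave r = 0.881 (rho 0.916, permutation p = 4e-05 and 6e-05, adjusted 8e-05 and 0.00015), and 0.746 without the 2 farthest mice. Type V varied more with the mice included: Col5a1 with Col5a2 gave r = 0.782 (rho 0.608, permutation p = 0.0017 and 0.03, adjusted 0.0024 and 0.037), but 0.096 within the numbered codes and 0.946 within the lettered ones. It was 0.566 without the 2 farthest mice (adjusted permutation p = 0.098), and 0.918 with group means subtracted (rho 0.814, adjusted permutation p = 3.3e-05 and 0.0014). Leaving out mice at the ends also narrows the range of the first gene, so a lower r does not show which mice it rests on.

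Col4a3 with Col4a4 gave r = 0.700 (rho 0.676, permutation p = 0.0078 and 0.014, adjusted 0.0097 and 0.019) and 0.392 without the 2 farthest mice. Its r was 0.949 within the numbered codes, 0.571 within the lettered ones and 0.873 with group means subtracted. Col8a1 with Col8a2 gave 0.656 (rho 0.478, permutation p = 0.021 and 0.1, adjusted 0.023 and 0.11) and 0.557 without the 2 farthest mice (rho 0.565, adjusted permutation p = 0.098 and 0.11). Its r was 0.416 and 0.854 within the code styles. Col11a1 with Col11a2 gave 0.486 (rho 0.457, permutation p = 0.092 and 0.12), which did not pass, 0.426 and 0.393 within the code styles and 0.279 without the 2 farthest mice. All arrays were normalized together, and its part in these correlations was not tested.

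**Figure D4:**
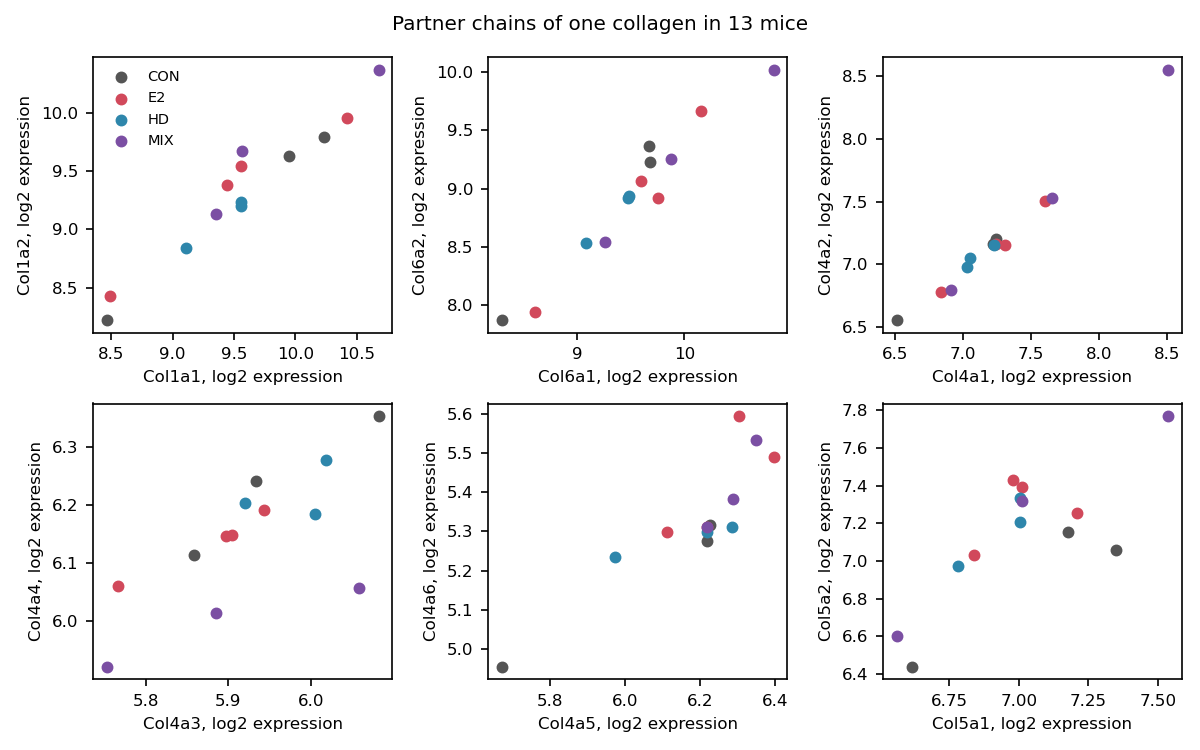
Log2 expression of 6 pairs of partner chains, 1 point per mouse, colored by group. Col1a1 with Col1a2, Col6a1 with Col6a2 and Col4a1 with Col4a2 lie along a line (r of 0.967, 0.972 and 0.992), and Col5a1 with Col5a2 and Col4a3 with Col4a4 scatter more (0.782 and 0.700).

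The 42 genes fell into a set that varied between mice and a set that hardly did, drawn here by the pooled SD within groups after the values were seen and so given without a test. Of the genes, 15 had an SD of at least 0.3: Col1a1, Col1a2, Col3a1, Col5a1, Col5a2, Col4a1, Col4a2, Col15a1, Col18a1, Col6a1, Col6a2, Col6a3, Col6a6, Col12a1 and Col14a1. They had their highest value in MIX replicate 3 in 10 cases and their lowest in CON replicate 3 in 10. A further 26 genes had an SD under 0.2, and Col17a1 lay between, at 0.26. The quiet set was highest in CON replicate 2 in 13 cases and lowest in CON replicate 3 in 9 and MIX replicate 2 in 8. Over the mice, the median r was 0.732 among pairs within the variable set, 0.570 within the quiet set and 0.202 between the sets. The quiet set holds the cartilage collagens Col2a1, Col9a1 to Col9a3, Col10a1, Col11a1 and Col11a2, along with Col4a3 to Col4a6. The sets also differ in level: over all mice the quiet genes averaged 3.76 to 6.83 and the variable ones 6.33 to 9.57. A small SD thus cannot tell a steady transcript from a weak signal here.

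In the variable set, the median deviation from each gene's mean was 0.25, 0.27 and -0.71 in CON, 0.10, 0.05, -0.42 and 0.47 in E2, -0.25, -0.03 and -0.05 in HD, and -0.44, 0.33 and 0.79 in MIX. Each arm but HD thus held mice on both sides by more than 0.2. The quiet set moved between -0.13 and 0.17.

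The machinery that makes, secretes, crosslinks, binds and degrades collagen was read from 8 lists. No gene of any of them passed in limma in any comparison, where 0% to 0.0167% of all features passed, and their values are a description. Their fitted differences carry the code style term, and all MIX mice share 1 style. Collagen chain modification and folding was higher in MIX than CON for 15 of 16 measured genes, with a median of 0.25 beside -0.03 over all features. P4ha1, a prolyl hydroxylase subunit needed for a stable helix, averaged 7.13 in CON, 7.98 in E2, 7.61 in HD and 8.20 in MIX, and its MIX value was 1.19 above CON (SE 0.28, adjusted p = 0.319 in limma). P3h2, a prolyl 3-hydroxylase that acts on type IV collagen, lay in the other direction, at -1.07 (SE 0.31, adjusted p = 0.417 in limma). Its plain means lay closer than this fit, at 8.08 in CON and 7.48 in MIX, with HD at 7.55.

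In the secretion and trimming list, 9 of 14 genes were higher in MIX than CON (median 0.13). Pcolce and Pcolce2 both encode enhancers of the protease that trims procollagen, and they lay in opposite directions: Pcolce averaged 6.74 in CON and 7.35 in MIX, and Pcolce2 8.64 and 6.98. The fitted differences were 0.68 (SE 0.25, adjusted p = 0.498 in limma) and -1.80 (SE 0.45, adjusted p = 0.344). For Pcolce2, E2 was 1.13 lower than CON by the fit (-1.13, SE 0.37).

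All 5 measured crosslinking genes were higher in MIX than in CON (median 1.38) and than in HD (median 0.86). Against CON, 5 of 5 were also higher in E2 (median 0.45) and 5 of 5 in HD (median 0.21). Lox, the founding lysyl oxidase, was 1.78 above CON in MIX (SE 0.66, adjusted p = 0.498 in limma), Loxl1 was 1.38 above (SE 0.43, adjusted p = 0.440) and Tgm2, a transglutaminase, was 1.90 above (SE 0.53, adjusted p = 0.395). Plain means of Tgm2 lay closer than its fit, at 9.69 in CON and 11.25 in MIX, with E2 at 10.89 and HD at 10.73.

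Proteoglycans and glycoproteins that sit on fibrils were higher in MIX than CON for 14 of 18 genes (median 0.86) and higher than HD for 17 of 18 (median 0.76). Bgn, the proteoglycan biglycan, averaged 8.78, 9.41, 8.91 and 9.86 in CON, E2, HD and MIX, and Thbs1, the matricellular thrombospondin, 8.31, 9.30, 8.12 and 9.77. Averaged over diets the pellet difference was 0.77 for Bgn (SE 0.19, adjusted p = 0.285 in limma) and 1.35 for Thbs1 (SE 0.29, adjusted p = 0.225). Tgfbi averaged 10.97 in CON and 8.71 in HD, and the fit gave -2.26 for HD from CON (SE 0.80, adjusted p = 1.0 in limma).

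Partners of type IV collagen in basement membranes had a median of 0.01 in MIX against CON, with 9 of 17 higher. Nid2, a nidogen that links laminin to type IV collagen, was 0.84 above CON (SE 0.27), and Frem2, a surface protein of embryonic basement membranes, lay at -0.64 (SE 0.22). Of 9 collagen receptors 6 were higher in MIX than CON (median 0.56). Itgb1, the shared integrin subunit, was 0.56 above (SE 0.11, adjusted p = 0.251 in limma), Itga2, its collagen-binding partner, 2.48 above (SE 0.75, adjusted p = 0.428) and Ddr2, a receptor kinase for fibrillar collagen, 1.07 above (SE 0.34, adjusted p = 0.443). Plain means of Itga2 lay closer than its fit, at 7.23 in CON and 9.19 in MIX.

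Genes of the degradation list, which also holds the inhibitors Timp1 and Timp2, were higher in 13 of 14 cases in MIX against CON (median 0.71). Against HD it was 14 of 14 (median 0.62). The other arms also lay above CON, in 12 of 14 cases for E2 (median 0.37) and 13 of 14 for HD (median 0.14). Some members lay below the array medians, with group means of 2.82 to 2.88 for Mmp1a and 3.84 to 4.21 for Fap, so their sign carries little. Mmp2, a gelatinase, averaged 8.47 in CON, 9.38 in E2, 8.74 in HD and 10.07 in MIX, and its inhibitor Timp2 8.86, 9.22, 8.88 and 9.69. The differences of MIX from CON were 1.67 (SE 0.54, adjusted p = 0.449 in limma) and 0.76 (SE 0.27, adjusted p = 0.482). Among signals that induce collagen, 8 of 14 were higher (median 0.18): Tgfb3 was 0.82 above CON (SE 0.24) and Tgfbr2 0.85 above (SE 0.25), while Pdgfc, a growth factor of the PDGF family, lay at -1.02 (SE 0.17, adjusted p = 0.184 in limma). Pdgfc averaged over diets came nearest to passing, at -0.77 (SE 0.11, adjusted p = 0.097 in limma).

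Markers of cell types moved with some of these values. Col17a1 lay beside the squamous epithelium list, whose 7 measured genes include Krt5, Krt14 and Trp63. The mean of that list was 8.43, 7.36 and 8.94 in MIX replicates 1 to 3, 7.55, 6.73, 6.42 and 6.73 in E2, 5.82 to 6.18 in CON and 5.91 to 6.05 in HD. All 7 markers were higher in MIX than in CON (median 2.77, 0 called in limma). Against HD, Trp63 rose in MIX by 0.84 (adjusted p = 0.0265 in limma), and averaged over diets Krt13 (2.54, adjusted p = 0.0296) and Krt15 (1.66, adjusted p = 0.04) rose with the pellet. All 7 had a mean above the array median, Trp63 only through MIX. It averaged 4.58 in CON, 4.58 in E2, 4.43 in HD and 5.28 in MIX, beside array medians of 4.48 to 4.71. The MIX mouse with the lowest squamous mean was also the one with the lowest Col17a1, and E2 replicate 1 was highest for both outside MIX, above MIX replicate 2. The part of squamous cells in the Col17a1 values was not tested.

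For the stromal collagens, the stromal fibroblast list (10 measured genes, all above the array median) averaged 7.63 to 8.01 in CON, 7.93 to 8.70 in E2, 7.73 to 7.85 in HD and 7.50 to 9.18 in MIX. MIX replicate 2 had the highest mean of the list, 9.18, while its Col1a1, at 9.56, was the median mouse's value to 2 decimals. CON replicate 3, lowest in Col1a1, had 7.63 in this list and the highest smooth muscle mean of all mice, 7.42 over 9 genes against 6.42 to 7.35 in the others. Its adipocyte mean was also the highest, 5.22 over 6 genes against 4.47 to 4.82, with Adipoq, Fabp4 and Lep on average below the array median. Pericyte markers averaged 6.84 in MIX replicate 2 and 5.35 to 6.08 elsewhere, and macrophage markers 5.87 to 6.17 in CON, 6.66 to 6.95 in E2, 6.45 to 6.53 in HD and 6.34 to 7.53 in MIX. Mesothelial markers averaged 7.49 to 8.13 in CON, 8.06 to 9.29 in E2, 8.17 to 8.29 in HD and 8.48 to 9.23 in MIX. Over all mice, Schwann cell markers averaged 5.33 to 5.61 and cartilage markers 5.33 to 5.78. Their part in the collagen values was not tested.

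**Figure D5:**
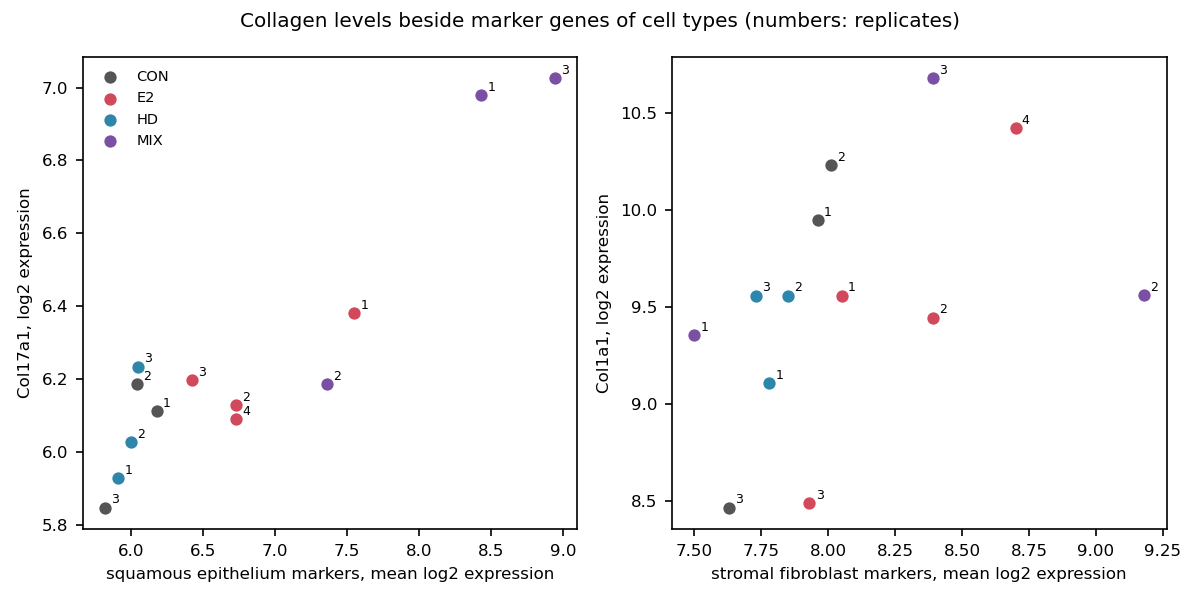
Left, Col17a1 against the mean of 7 squamous epithelium markers; right, Col1a1 against the mean of 10 stromal fibroblast markers; both axes log2 expression, 1 point per mouse labelled by replicate and colored by group. MIX replicates 1 and 3 are high on both axes at left, and at right MIX replicate 2 has the highest marker mean (9.18) with Col1a1 at 9.56.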

How the data were processed

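The authors deposited 1 table of log2 expression values for the 13 mice, made from Affymetrix arrays hybridized with 250 ng of total RNA per the labels' protocols. Per the submitters' processing notes the values come from RMA, with no version named. RMA brings the arrays to like distributions, so a difference shared by most features may be reduced. The deposited arrays still differed in their medians, from 4.48 to 4.71. Genes were assigned from the platform annotation, with 30604 of 65929 features carrying 1 symbol, 2146 several and 33179 none.

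Differences were fitted with limma 3.58.1 (R 4.3.3) over all 13 mice, with 4 groups and the style of the animal code as terms, and p-values were adjusted by Benjamini-Hochberg over 65929 features, two-sided, with a threshold of 0.05. The fit was tested on simulated data. Correlations used permutation tests written in Python 3.11.15, with 100000 resamples, or exact below 10 mice, two-sided. Ranks and the adjustment of these p-values came from SciPy 1.17.1. After group means were subtracted, values were still permuted over all 13 mice. Those p-values ignore the means removed and may be too small. Each mouse is a separate animal, and the number of arrays limits the precision.

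Values in every mouse are given for the 3 genes with the highest mean in each class and the 3 with the smallest p in each comparison. Within the 8 lists of collagen machinery, up to 3 genes with the smallest p in a comparison are named. The members and the lists were chosen with earlier results of these data known. The alternatives left out each mouse, code style or low features, or changed the groups fitted, the prior, the array weights, the centring or the replicate block.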

Additional observations from a re-analysis of the deposited data

Results flagged for a closer look

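Col12a1 in E2 replicate 3 lay far below the other mice of its group, at 6.07 against 6.43, 6.42 and 6.40. It came from 17 genes examined in the E2 group, the only group of at least 4 mice, and chance sets a mouse apart in about 5% of such groups.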

How the results depend on the processing

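No collagen passed in limma under any alternative but one: in MIX against CON, leaving out 1 mouse at a time gave 0 to 1 collagens, the 1 being Col17a1 without MIX replicate 2. Over all features, calls in MIX against CON were 2 with all mice, 0 when CON replicate 3 was left out, 40 when MIX replicate 1 was and 89 when MIX replicate 2 was, so the background shares rest on single mice. Same replicate numbers do not pair the mice (median correlation of deviations -0.0505 over 18 same-numbered pairs, 0.002 over 45 others), and with a replicate block 0 collagens and 0 features passed in MIX against CON. The median collagen difference was 0.199 for HD against CON and -0.167 for the interaction within lettered codes, where CON, E2 and HD hold 1 mouse each. Signs turned within lettered codes for Col15a1 in HD against CON (0.086), Col4a5 in MIX against E2 (-0.02) and Col4a1 in the interaction (-0.095), and for Col4a5 in MIX against E2 with only those groups fitted (-0.02). Beside these 4 reversals and Col17a1, the other 436 values of named genes under alternatives kept their sign and side of the threshold.

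With each array centred on its median, an alternative chosen after seeing the data for the counts without overlap, those counts were 2 for HD against CON, 6 for MIX against CON, 5 for MIX against HD and 0 for MIX against E2. Correlations no longer passed for Col4a3 with Col4a4 within lettered codes (0.571) and without the 2 farthest mice (0.392), Col4a5 with Col4a6 within numbered codes (0.820), Col5a1 with Col5a2 within numbered codes (0.096) and without the 2 farthest mice (0.566), and Col8a1 with Col8a2 likewise (0.416 and 0.557). With group means subtracted, Col11a1 with Col11a2 passed by r (0.568, adjusted permutation p = 0.043) but not by rho (0.498, adjusted permutation p = 0.086). That p takes no account of the means subtracted. The cause of these changes was not tested. Averaging features of a symbol was not run, since each symbol had 1 feature. The low-value filter removed Col8a1 and Col10a1, whose levels lay under the array medians.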

Other observations

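Identical values recurred across mice. Of the 42 collagen genes, 28 (66.7%) had at least 2 mice with the same value to 6 decimals, in each case at the gene's median over the 13 mice, against 43.0% of all features with such a tie. At least 3 mice shared a value for 20 collagens (47.6%), against 23.1% of all features. The most was 6 mice, for Col23a1 at 6.224 and Col28a1 at 4.967, and 4 mice shared 6.218 for Col4a5. SDs and overlaps between groups of such genes include these shared values.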
